A study of Mus musculus with 13 samples.

Results

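The genes described here are 10 regulators of DNA methylation and of developmental timing. They comprise the DNA methyltransferases Dnmt1, Dnmt3a and Dnmt3b, their cofactors Dnmt3l and Uhrf1, the methylcytosine dioxygenases Tet1, Tet2 and Tet3, and the RNA-binding proteins Lin28a and Lin28b. They were taken by symbol, as genes whose levels mark developmental stage, from 25715 gene symbols listed in the count tables of the series. All 10 were among the 23690 symbols that the tables of both experiments share.

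The series measured RNA of mouse endothelial cells (ECs) with and without the vascular peptide Apelin in a pair of experiments. In the sprout experiment, CD31+ cells were sorted from embryoid bodies (EBs) of female embryonic stem cells of a C57BL/6x129 background, which sprouted vessels in collagen under VEGFA164 (30 ng/mL) from day 8. These cells carry a gene trap in Apln, either in the sense orientation (Apln STOP, n = 2 libraries, DMSO added per the study's legends) or reverted by Cre to antisense (Apln GO, n = 2, with Apelin Pyr13 added), so that genotype and added peptide changed together. In the tumor experiment, 100 cells per library, gated as CD31+ CD105+ CD45- and DAPI-, were sorted from orthotopic tumors of E0771, a mouse mammary carcinoma line, at day 25 in C57BL6/J mice. The wild-type group (n = 6) came from wild-type hosts with shRenilla tumor cells, and the Apelin-depleted group (n = 3) from Apln-/- hosts with shApln tumor cells, so that host and tumor cells also changed together.

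Dnmt3a and Dnmt3b place methyl groups on unmethylated CpG sites, and Dnmt3l, which has no catalytic activity of its own, stimulates them and is mainly a gene of germ cells and of the early embryo. Dnmt1, brought by Uhrf1 to the half-methylated CpG sites that replication leaves, copies the pattern to the daughter strand. The Tet enzymes oxidise methylcytosine as a step towards its removal, and Lin28a and Lin28b bind precursors of the let-7 miRNAs in stem and embryonic cells and block their maturation.

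Counts on genes per library ranged from 12327030 to 16804071 in the sprout tables and from 4661044 to 14455093 in the tumor tables. Levels are given in CPM, counts scaled to the library total with 1 set of scaling factors for all 13 libraries, and 3 counts, the most that an observed 0 allows, stood for 0.151 to 0.646 CPM on this scale. Apln itself, which checks the labels, measured 13.1, 9.40 and 2.71 CPM in the Apelin-depleted tumor libraries and 462 to 1132 CPM in the wild-type ones. In the sprout experiment Apln measured 58.9 and 69.1 CPM in the libraries labelled sense and 49.6 and 55.6 CPM in those labelled antisense. The sense label was therefore not accompanied by lower Apln counts. The tables hold 1 count per gene, in which reads from before and after the trap cannot be told apart. This count thus does not show the disruption of Apln that the sense label stands for, and the reason was not tested. The sprout groups are called by their labels below.

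The sorted populations differed in cell type markers, as the plot of marker lists by library shows. Summed over 12 endothelial markers, the level was 587 and 772 CPM in the libraries labelled sense, 2044 and 2241 CPM in those labelled antisense and 8264 to 15495 CPM in the tumor libraries. Summed over 18 pluripotency markers, it was 5798 and 6355 CPM, then 2458 and 3857 CPM, and 79.5 to 528 CPM in tumor, where Dppa5a was at 0 in all 9 libraries. Most of the tumor sum was Klf4, a factor that ECs also express (59.2 to 525 CPM), and without it the sum was 1.76 to 27.8 CPM in tumor and 2354 to 6285 CPM in sprouts. Leukocyte markers summed to 1422 CPM in Apelin-depleted library 1 and 864 CPM in wild-type library 4, against 49.0 to 143 CPM in the other 7 tumor libraries. The CD31+ sprout libraries thus carried pluripotency transcripts beside endothelial ones, and their cells are called sprout cells below.

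**Figure D1:**
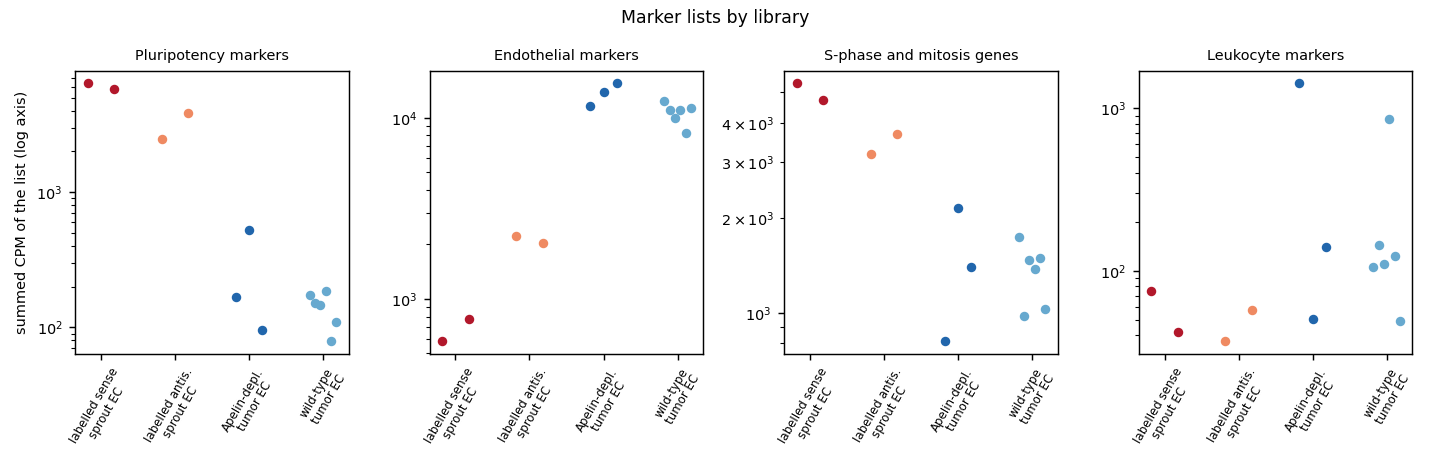
Summed CPM (log axis) of 4 marker lists in each library, 1 point per library and 1 colour per group. Pluripotency markers were highest in the libraries labelled sense (5798 and 6355 CPM) and endothelial markers highest in the tumor libraries, while 2 tumor libraries stood above the other 7 in leukocyte markers.

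Sequence is shown for Dnmt3l, the member called between the sprout groups, for Lin28a, which had the highest fold change between the experiments, and for Tet3, whose fold change there had the opposite sign but was not called. The 250 bases before a RefSeq transcription start of each (GRCm38.p6, read on the gene's strand) are shown with every CpG, the substrate of the enzymes described here, in capitals. Methylation itself was not measured in this series. The Dnmt3l window lies at chr10:78042037-78042286 on the plus strand, the Tet3 window at chr6:83441679-83441928 on the minus strand and the Lin28a window at chr4:134018817-134019066 on the minus strand.
Dnmt3l: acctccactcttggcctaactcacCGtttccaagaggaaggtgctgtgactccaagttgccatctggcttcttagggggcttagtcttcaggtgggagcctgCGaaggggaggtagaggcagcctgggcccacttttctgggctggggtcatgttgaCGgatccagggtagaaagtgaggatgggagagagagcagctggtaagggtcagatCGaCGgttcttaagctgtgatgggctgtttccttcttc
Tet3: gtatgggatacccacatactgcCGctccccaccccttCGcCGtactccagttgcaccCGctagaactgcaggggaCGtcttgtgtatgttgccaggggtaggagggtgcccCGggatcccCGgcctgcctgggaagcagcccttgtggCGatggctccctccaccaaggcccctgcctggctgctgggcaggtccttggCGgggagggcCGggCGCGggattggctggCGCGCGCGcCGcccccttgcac
Lin28a: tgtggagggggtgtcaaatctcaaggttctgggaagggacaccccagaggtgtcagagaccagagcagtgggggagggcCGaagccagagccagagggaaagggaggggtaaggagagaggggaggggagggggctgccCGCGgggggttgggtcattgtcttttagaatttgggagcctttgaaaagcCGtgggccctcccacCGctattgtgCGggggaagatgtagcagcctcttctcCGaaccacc

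The Dnmt3l window held 5 CpG, the Lin28a window 7 and the Tet3 window 17, against a median of 6 over the 32851 windows of this length in the table. The other RefSeq starts of Dnmt3l held 4 and 3 CpG. Tet2 had the most of any member, 51 CpG, a number reached by 0.067% of all windows, and the 2 upstream starts of Dnmt3a held 38 and 40. The letters ATGCAAAT (the octamer bound by Oct factors), TTTCCCGC and TTTGGCGC (E2F-type letters), searched on both strands, were in 1.6%, 0.895% and 0.417% of all windows and in none of the 17 windows of the members.

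The molecules on which the Lin28 proteins act are short enough to show whole. The 9 mature 5p miRNAs of the let-7 family in RefSeq share the seed GAGGUAG (bases 2 to 8, in capitals in the 2 mature sequences below). Of their 12 hairpins, 9 hold the letters GGAG, the tetramer known to be contacted by Lin28. The hairpin of let-7g (chr9:106178840-106178927, plus strand) is shown with GGAG in capitals. The miRNAs were not measured in these poly-A libraries.
let-7a-5p: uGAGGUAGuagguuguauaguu
miR-98-5p: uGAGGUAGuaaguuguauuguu
let-7g hairpin: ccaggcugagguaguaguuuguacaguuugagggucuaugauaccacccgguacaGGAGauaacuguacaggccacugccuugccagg

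The first comparison asked at which levels these stage-linked genes stood in CD31+ sprout cells from EBs and in tumor ECs. In the joint edgeR quasi-likelihood fit of the 13 libraries, 8 of the 10 genes were called higher in the sprout libraries (adjusted p under 0.05 and a log2 fold change beyond 1) and none lower. Lin28a and Lin28b had 15 and 10 counts over the 9 tumor libraries and passed the count filter only through the sprout libraries. They could thus be called only as higher, and they are part of the median below. Among all 15762 genes tested 22% were called higher and 20.2% lower, so that calls were common in this comparison. DESeq2 called 7 of the 10 and 43.5% of all genes. The median log2 fold change was 3.19 over the 10 genes and 0.11 over all genes. The groups did not overlap for 8 of the 10, against 35.5% of all genes. Cell source, sorting, library protocol, counting tool and depth differ together with the experiment and cannot be told apart, and in bulk samples fewer cells of a type and less RNA per cell cannot be told apart either. In the same comparison 17 of 18 pluripotency markers were called higher and 1, Klf4, lower (−1.44, adjusted p = 0.0109), and all 12 endothelial markers were called lower. Of the 18 pluripotency markers, 2 had enough counts for the fit of the tumor libraries alone. The part of pluripotent cells in the values below was not tested.

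**Figure D2:**
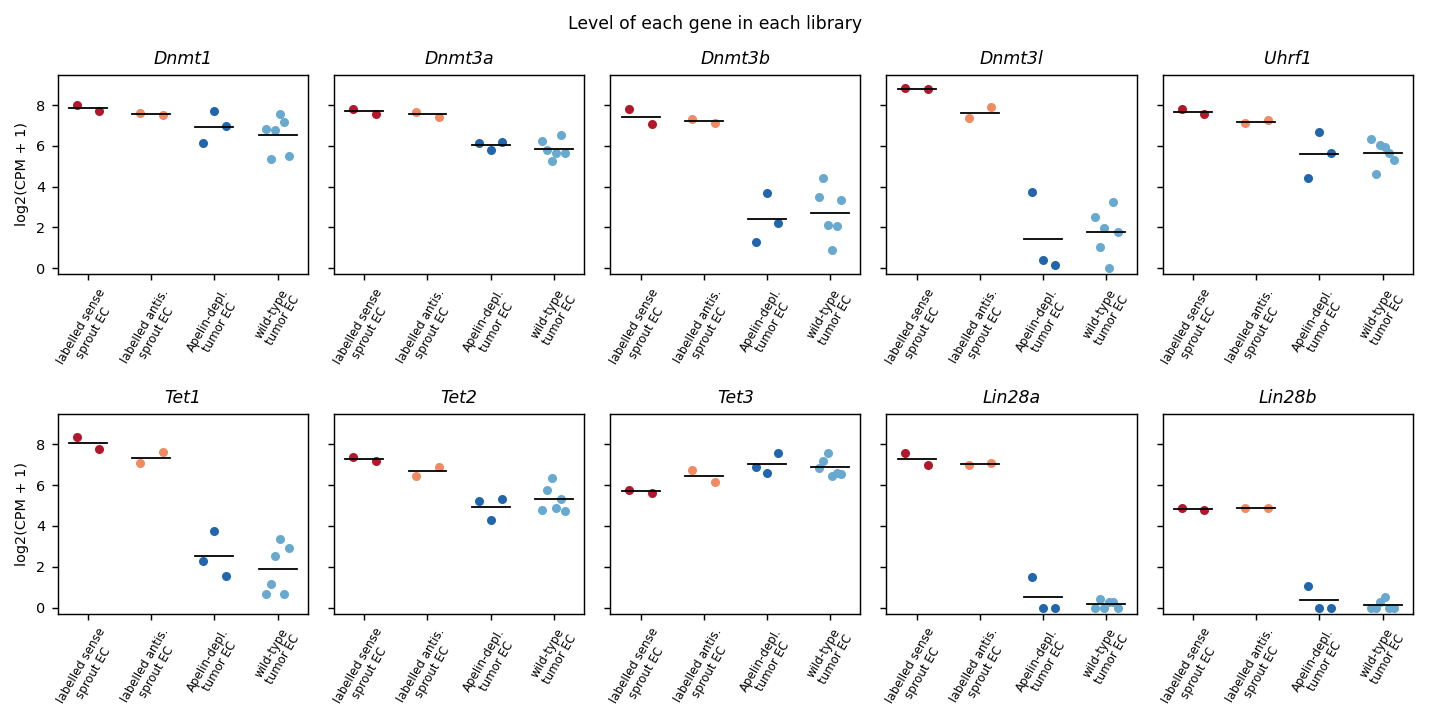
Level of each gene as log2(CPM + 1) in each library, 1 point per library and a bar at the group mean. Lin28a, Lin28b, Tet1, Dnmt3b and Dnmt3l stood far apart between sprout and tumor libraries, while Dnmt1 and Tet3 overlapped.

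The de novo methyltransferases were both higher in sprouts, but by unlike amounts. Dnmt3a (chr12:3806007-3914443, GRCm38, plus strand, as all gene positions here from GENCODE M21) measured 226 and 187 CPM in the libraries labelled sense, 205 and 171 CPM in those labelled antisense, 68.8, 54.1 and 72.5 CPM in the Apelin-depleted tumor libraries, and from 37.5 to 92.5 CPM (median 52.2) in the wild-type ones. It was expressed in every library of both experiments, with a log2 fold change of 1.66 ± 0.25 (SE, adjusted p = 4.04e-05). Dnmt3b (chr2:153649450-153687730, plus strand) measured 226 and 132, then 160 and 137 CPM in the sprout libraries, 1.48, 11.97 and 3.66 CPM in the Apelin-depleted and from 0.861 to 20.2 CPM (median 6.33) in the wild-type tumor libraries. Its tumor values lay far below those of sprouts in each library, and the lowest rested on 4 counts. The log2 fold change of Dnmt3b was 4.58 ± 0.65 (SE, adjusted p = 4.13e-05).

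Dnmt3l, the catalytically inactive cofactor of both (chr10:78041947-78063622, plus strand), was low in tumor ECs, with more than 3 counts in 7 of the 9 libraries. It measured 453 and 444 CPM in the libraries labelled sense and 163 and 239 CPM in those labelled antisense. In tumor, it measured 12.2, 0.311 and 0.135 CPM in the Apelin-depleted libraries and 0 to 8.43 CPM (median 2.74) in the wild-type ones, on 191 counts in all. Every sprout library stood above every tumor library, with a log2 fold change of 6.39 ± 1.06 (SE, adjusted p = 5.94e-04). DESeq2 gave a log2 fold change of 6.36 but no adjusted p for this gene, and without Apelin-depleted library 1, which held 66 of the 191 counts, the value rose to 8.32.

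The maintenance pair differed less between the experiments. Dnmt1 (chr9:20907209-20959888, minus strand) measured 260, 210, 196 and 180 CPM in the sprout libraries in the order sense 1, sense 2, antisense 1 and antisense 2, 68.8, 209 and 124 CPM in the Apelin-depleted and 40.6 to 186 CPM (median 111) in the wild-type tumor libraries. Sprout and tumor values overlapped through Apelin-depleted library 2 and wild-type library 4, and the log2 fold change of 0.82 ± 0.36 (SE) was not called (adjusted p = 0.0757). Uhrf1 (chr17:56303321-56323486, plus strand) measured 222 and 186, then 138 and 153 CPM in sprouts, 20.5, 101 and 49.2 CPM in the Apelin-depleted and 23.9 to 80.3 CPM (median 55.0) in the wild-type tumor libraries. Its groups were separate, with a log2 fold change of 1.65 ± 0.35 (SE, adjusted p = 0.00103). It was not called between the sense and the Apelin-depleted libraries alone (1.78, adjusted p = 0.0682).

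Among the dioxygenases, Tet1 and Tet2 were higher in sprouts and Tet3 was not. Tet1 (chr10:62804570-62908996, minus strand), the member best known from pluripotent cells, measured 324 and 219, then 135 and 194 CPM in sprouts, 3.89, 12.5 and 1.896 CPM in the Apelin-depleted and 0.575 to 9.25 CPM (median 2.98) in the wild-type tumor libraries. The log2 fold change was 5.44 ± 0.69 (SE, adjusted p = 2.18e-05), and 2 wild-type libraries held 3 counts each. Tet2 (chr3:133463679-133545139, minus strand) measured 168 and 145, then 86.9 and 119 CPM in sprouts, 36.1, 18.6 and 39.0 CPM in the Apelin-depleted and 25.7 to 79.8 CPM (median 34.0) in the wild-type libraries. It was present in every library, and its groups did not overlap (log2 fold change 1.81 ± 0.33, SE, adjusted p = 2.42e-04). It was not called between the antisense and the wild-type libraries alone (1.26, adjusted p = 0.0508). Tet3 (chr6:83362373-83459084, minus strand) measured 54.1 and 47.5, then 107 and 71.1 CPM in sprouts, 119, 95.1 and 188 CPM in the Apelin-depleted and 87.0 to 193 CPM (median 105) in the wild-type libraries. Tet3 was the member with the opposite sign. Its log2 fold change of −0.92 ± 0.29 (SE, adjusted p = 0.0142) fell short of the fold threshold, and it passed both thresholds without antisense library 1, Apelin-depleted library 1 or 2, or wild-type library 4, 5 or 6 (−1.01 to −1.08), but not without any of the other 7. Between the antisense and the wild-type libraries alone it was −0.47 (adjusted p = 0.387), and between the sense and the Apelin-depleted libraries alone −1.45 (adjusted p = 0.0349), which was called.

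Since a share within a gene family does not depend on how the libraries are scaled, the Tet genes were also set against each other per transcript length. A share still depends on library protocol, counting tool and transcript length, and the lengths of the sprout tables were used for both experiments. Tet3 made up 72.0% ± 4.81 (SD, n = 9) of the summed Tet level in the tumor libraries, from 66.2% to 79.7%, and led in all 9 of them. In the sprout libraries its share was 10.7% and 12.2% where labelled sense and 34.0% and 19.6% where labelled antisense, and Tet1 led in 2, Tet2 in 1 and Tet3 in 1 of the 4. The difference in the Tet3 share between the experiments had the smallest p that an exact two-sided permutation test of 4 against 9 libraries can give (0.0014, adjusted p = 0.0049 over 14 share tests). Tet1 made up 42.0% ± 6.80 (SD, n = 4) in sprouts and 2.44% ± 2.68 (SD, n = 9) in tumor (exact permutation test, adjusted p = 0.0049).

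**Figure D3:**
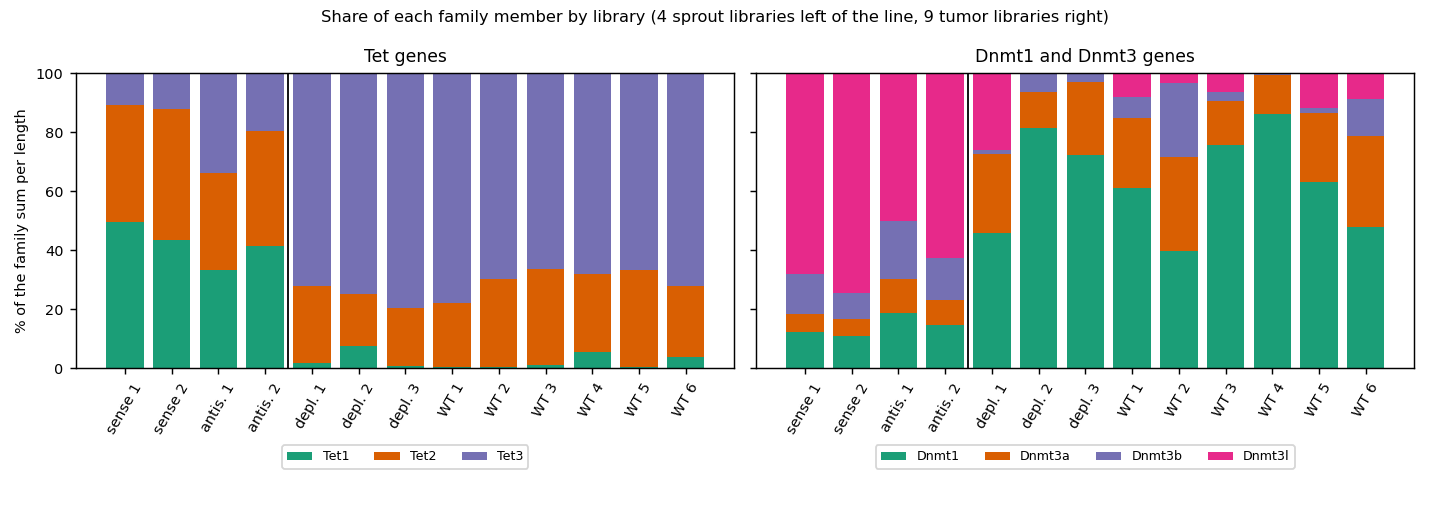
Share of each gene in the summed level per length of its family, in percent, 1 bar per library, with sprout libraries left of the line and tumor libraries right. Tet3 was the largest part of every tumor bar (66.2% to 79.7%), and Dnmt3l the largest part of every sprout bar in the methyltransferase family (50.1% to 74.4%).

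The methyltransferase family was likewise composed differently. Dnmt3l made up 63.8% ± 10.3 (SD, n = 4) of the summed Dnmt1, Dnmt3a, Dnmt3b and Dnmt3l level in sprouts and 7.20% ± 8.19 (SD, n = 9) in tumor, where its highest share, 26.0%, was in Apelin-depleted library 1. Dnmt1 made up 14.2% ± 3.44 (SD, n = 4) in sprouts and 63.6% ± 16.5 (SD, n = 9) in tumor. Both differences had an adjusted p of 0.0049 in the exact permutation test over the same 14 tests. The Dnmt3b share, 14.1% against 6.66%, was not separated (exact permutation test, adjusted p = 0.17).

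Lin28a and Lin28b had few counts in tumor ECs and were called higher in sprouts, the only call open to them. Lin28a (chr4:134003330-134018841, minus strand) measured 192 and 125 CPM in the libraries labelled sense and 127 and 136 CPM in those labelled antisense. In the 9 tumor libraries it had 15 counts in all, of which 10 lay in Apelin-depleted library 1 (1.85 CPM), and the other 8 held 0 to 3 counts, at or under the limit that an observed 0 allows. Lin28b (chr10:45376620-45486395, minus strand) measured 28.2 and 26.3, then 28.7 and 28.1 CPM in sprouts, the narrowest spread of any member there. It had 10 counts in the tumor libraries, of which 6 lay in Apelin-depleted library 1 (1.11 CPM) and 0 to 2 in each of the others. The log2 fold changes were 9.09 ± 0.83 (SE, adjusted p = 2.43e-07) for Lin28a and 7.13 ± 1.16 (SE, adjusted p = 8.54e-05) for Lin28b. With so few tumor counts both depend on the prior count of the fit, and leaving out Apelin-depleted library 1 raised them to 11.75 and 9.51.

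Apelin-depleted library 1, which held the most Dnmt3l and Lin28 counts of any tumor library, was also highest in leukocyte markers (1422 CPM, although the sort was for CD45- cells), in the list of epithelial markers (238 CPM against 14.9 to 75.5 CPM in the other 8) and in germline genes (95.1 CPM against 7.31 to 86.0 CPM). Wild-type library 2, highest in Dnmt3b, was highest in mural and fibroblast markers (5865 CPM against 62.4 to 345 CPM in the other 8). The part of those transcripts in the members' counts was not tested.

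The second comparison asked what changed with the gene trap orientation in the sprout cells. Of the 10 genes, 1 was called, Dnmt3l, which was higher in the libraries labelled sense, while 0.852% of the 14557 genes tested were called higher and 3.03% lower. At an unadjusted p under 0.05 there were 5 of the 10, against 26.7% of all genes, and the median log2 fold change of the 10 was 0.24 against 0.01 over all genes. The 2 groups did not overlap for 6 of the 10 genes, close to the 60.9% of all genes for which that held. With 2 libraries a group and no statement in the labels that they came from separate cultures, the p-values here and below measure the spread between these libraries, which may be technical.

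Dnmt3l at 453 and 444 CPM where labelled sense and 163 and 239 CPM where labelled antisense had a log2 fold change of 1.11 ± 0.20 (SE, edgeR adjusted p = 0.0244). DESeq2, which called 5.53% of all genes, also called it, as did edgeR with RSEM expected counts. It was not called without sense library 1 (1.14, adjusted p = 0.0968), nor without antisense library 1, when the log2 fold change was 0.85 (adjusted p = 0.0483) and under the fold threshold. Its exons share 67 bases, 2.24% of their length, with Aire on the opposite strand.

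Tet3 was the gene nearest to a call in the other direction. All its values where labelled sense (54.1 and 47.5 CPM) lay below those where labelled antisense (107 and 71.1 CPM), at a log2 fold change of −0.86 ± 0.20 (SE, adjusted p = 0.0507). Without antisense library 2 it was called (−1.11, adjusted p = 0.0117), and without antisense library 1 the change was −0.54 (adjusted p = 0.193). DESeq2 gave −0.87 with an adjusted p of 0.00425, under the fold threshold.

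Tet1 and Tet2 had the sign of Dnmt3l. Tet1 at 324 and 219 against 135 and 194 CPM had a log2 fold change of 0.67 ± 0.24 (SE, adjusted p = 0.153), and Tet2 at 168 and 145 against 86.9 and 119 CPM one of 0.55 ± 0.18 (SE, adjusted p = 0.106). Uhrf1 followed at 0.44 ± 0.14 (SE, adjusted p = 0.107) and Dnmt1 at 0.27 ± 0.15 (SE, adjusted p = 0.269). None of these 4 was called, although in each the libraries labelled sense were both above those labelled antisense. Dnmt3a (0.08 ± 0.15), Dnmt3b (0.21 ± 0.25), Lin28a (0.21 ± 0.19) and Lin28b (−0.11 ± 0.16, all SE) overlapped between the groups, with adjusted p from 0.519 to 0.759.

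**Figure D4:**
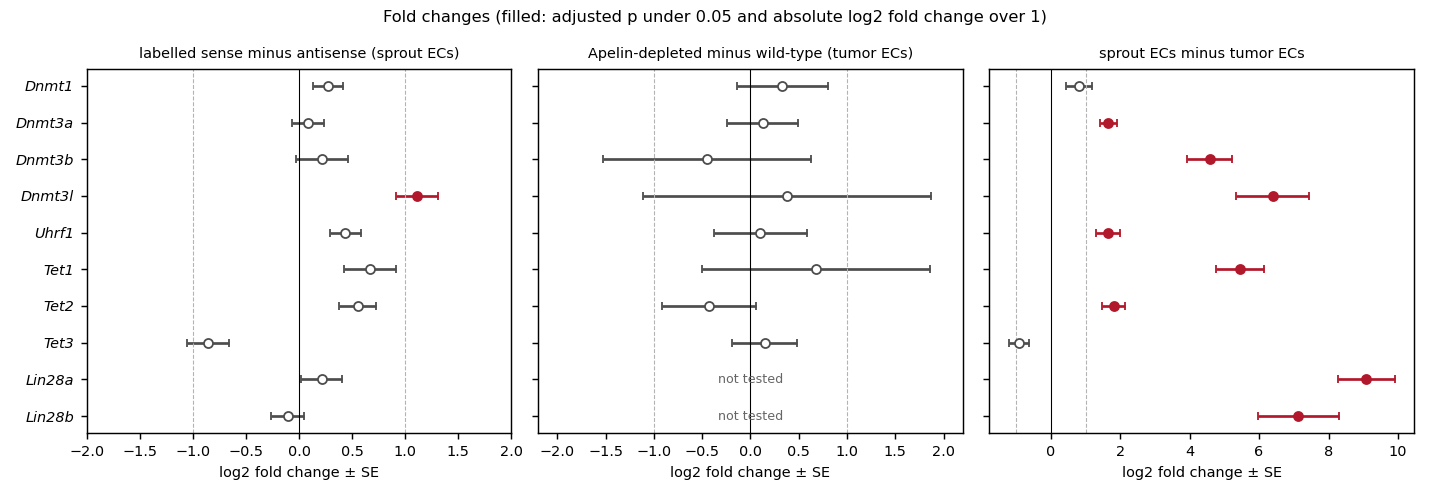
Log2 fold change with its SE for the 10 genes in the 3 comparisons (edgeR quasi-likelihood), except Lin28a and Lin28b, which were not tested in tumor ECs. Filled points are calls and dashed lines lie at a log2 fold change of 1 and −1. In sprouts Dnmt3l was the only call, in tumor ECs there was none, and 8 genes were called between the experiments.

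Marker levels also differed between the sprout groups. Pluripotency markers were 1.93-fold higher where labelled sense and 17 of the 18 had a positive fold change, of which Dppa5a, Fgf4 and Tcl1 were called. Endothelial markers stood at 0.317 of the antisense level, with 11 of 12 called lower, among them Cdh5, the vascular cadherin, at a log2 fold change of −1.98 ± 0.27 (SE, adjusted p = 0.0173). Per 1000 CPM of the summed pluripotency markers, Dnmt3l stood at 71.3 and 76.7 where labelled sense and 66.5 and 62.1 where labelled antisense, 1.15-fold apart on this scale and 2.23-fold apart before it. On the same scale Tet3 stood at 8.51 and 8.20 against 43.5 and 18.4, and the other 8 members were lower on average where labelled sense. Per 1000 CPM of the summed endothelial markers all 10 members were higher where labelled sense, Dnmt3l 7.09-fold (772 and 576 against 72.9 and 117) and Tet3 1.86-fold (92.1 and 61.6 against 47.7 and 34.8). Per 1000 CPM of the S-phase and mitosis genes the ratio was 1.54 for Dnmt3l and 0.382 for Tet3. The direction of Tet3, and of every member but Dnmt3l, thus depended on the marker list used as the scale. Of 18 germline genes known to be silenced by promoter methylation, 4 were called higher where labelled sense (Sycp1, Taf7l, Hormad1 and Rpl10l) and none lower, beside 0.852% and 3.03% of all genes, with a median log2 fold change of 0.90. Among 14 tested markers of other EB lineages, 4 were called lower where labelled sense and 1 higher. What part a different mixture of cells has in the Dnmt3l and Tet3 values was not tested.

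The third comparison asked whether Apelin status in tumors went with the levels of these genes. None of the 8 genes tested was called and none had an unadjusted p under 0.05, while the share of genes called lower was 0.00765% (1 gene, Apln, of 13073) and that of genes called higher 0. DESeq2 called 0.444% of the genes, none of them a member. Lin28a and Lin28b had too few counts to be tested. The groups overlapped for all 10 genes, against 2.32% of genes without overlap. The fold changes farthest from 0 were those of Tet1 (0.68 ± 1.18) and Dnmt3b (−0.45 ± 1.07), followed by Tet2 (−0.43 ± 0.48), Dnmt3l (0.38 ± 1.49) and Dnmt1 (0.33 ± 0.47), all as log2 ± SE with an adjusted p of 1. For Dnmt3l the sign rested on Apelin-depleted library 1, since the log2 fold change was −3.74 without it (adjusted p = 0.846). Dnmt3a (0.13 ± 0.37), Tet3 (0.15 ± 0.34) and Uhrf1 (0.10 ± 0.49, all SE) had the smallest. The Tet3 share of the Tet level was 75.6% in the Apelin-depleted and 70.1% in the wild-type libraries (exact permutation test, adjusted p = 0.17), and that of Tet2 21.0% and 27.9% (adjusted p = 0.143, exact).

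The difference between the sprout and tumor contrasts was tested as an interaction. No member was called, where 0.00634% of genes (Apln alone, of 15762) were called higher and 0 lower, and none had an unadjusted p under 0.05. DESeq2 called 0.501% of genes, none of them a member. The smallest unadjusted p-values in this edgeR fit were those of Tet3 (0.102, log2 difference −0.95 ± 0.55, SE) and Tet2 (0.143, 1.04 ± 0.68, SE). The Dnmt3l call in sprouts is thus not shown to differ from tumor ECs, where its SE was 1.49.

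Within the tumor libraries the level of Uhrf1 varied with that of cell cycle genes. The score was the mean log2(CPM + 1) of 22 S-phase and mitosis genes, which ranged from 4.58 in Apelin-depleted library 1 to 6.17 in Apelin-depleted library 2. Uhrf1 rose with it in the same order in all 9 libraries (Spearman's rho = 1, exact permutation p = 5.51e-06, adjusted p = 4.41e-05 over 8 genes; Pearson's r = 0.967, exact permutation p = 2.76e-06, adjusted p = 2.2e-05). These p-values are the smallest that 9 libraries can give. Leaving out the 2 libraries farthest from the median score, r was 0.951, and within the 6 wild-type libraries 0.947. Among 12573 other genes tested in tumor, none had an r as high as Uhrf1, and the median r was 0.00333. Uhrf1 itself is not on the list of 22.

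Dnmt1 had an r of 0.779 with the same score (exact permutation p = 0.0139, adjusted p = 0.0556) and a rho of 0.683 (exact permutation p = 0.0503, adjusted p = 0.201), which did not pass after adjustment. Its r was 0.776 without the 2 farthest libraries and 0.813 within wild-type, and 0.923% of the other genes had an r at least as high. Dnmt3a, Dnmt3b, Dnmt3l, Tet1, Tet2 and Tet3 had r between −0.509 and 0.184, with exact permutation p of 0.162 or more. In the sprout libraries the cell cycle list summed to 4731 and 5325 CPM where labelled sense and 3177 and 3695 CPM where labelled antisense, and Uhrf1 per 1000 CPM of it stood at 41.7 and 39.3 against 43.5 and 41.3.

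**Figure D5:**
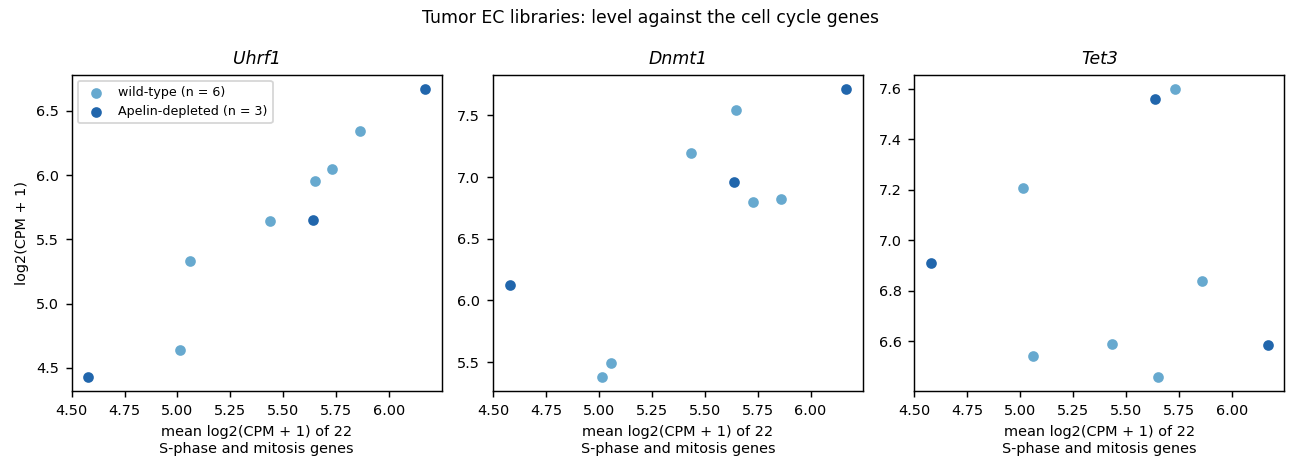
Level of Uhrf1, Dnmt1 and Tet3 as log2(CPM + 1) against the mean log2(CPM + 1) of 22 S-phase and mitosis genes, 1 point per tumor library, coloured by group. The Uhrf1 points follow 1 order (r = 0.967), the Dnmt1 points rise with more scatter (r = 0.779) and the Tet3 points show no trend (r = −0.0104).

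Levels can be compared between genes only per length, for which the deposited TPM, scaled for transcript length and library total, served in sprouts. Dnmt3l had the highest mean at 329 TPM (191 to 437), above Uhrf1 at 123 TPM (111 to 146). Lin28a (76.6 TPM), Dnmt3b (73.3 TPM) and Dnmt1 (67.1 TPM) followed and overlapped with each other. Next came Dnmt3a at 36.6 TPM, then Tet1 (25.5 TPM), Tet2 (23.7 TPM), Tet3 (11.2 TPM) and Lin28b (8.88 TPM), of which each overlapped with its neighbour. In the tumor libraries, as CPM per kilobase of the same lengths, the order was Dnmt1 (21.8), Uhrf1 (15.6), Tet3 (11.5), Dnmt3a (6.80), Tet2 (4.20), Dnmt3l (2.16), Dnmt3b (1.71), Tet1 (0.325), Lin28a (0.0825) and Lin28b (0.0362). Each gene overlapped with the next in this tumor order, so that the places are those of the means only. RSEM assigned Uhrf1 1.46 times the reads of the HTSeq table in the median library, while for the other members the ratio lay between 0.989 and 1.10.

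The genes that work with the members were described as lists. Of 16 cofactors of DNA methylation tested, 10 were called higher in sprouts than in tumor and none lower, beside 22% and 20.2% of all genes (median log2 fold change 2.03, against 0.11 over all genes). They included Trim28, the corepressor that recruits silencing complexes to imprinted regions and retroelements (1267 and 897 CPM on average where labelled sense and antisense, 167 and 155 CPM in Apelin-depleted and wild-type tumor ECs), and Setdb1, the histone methyltransferase recruited by it (log2 fold change 3.41 ± 0.32, SE, adjusted p = 2.14e-07). In the sprout comparison 15 of the 16 had a positive fold change and none was called, and in the tumor comparison none was.

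Of 9 readers of methylated DNA, 2 were called higher in sprouts (Uhrf2 and Zbtb33) and 3 lower (Mbd2, Zbtb4 and, named after its values were seen, Zbtb38), with a median of −0.04. These numbers were near the 22% called higher and 20.2% called lower among all genes. Mbd2, a methyl-CpG binding repressor, averaged 29.0 and 53.9 CPM where labelled sense and antisense and 174 and 112 CPM in Apelin-depleted and wild-type tumor ECs (log2 fold change −1.82 ± 0.29, SE, adjusted p = 8.39e-05). Between the sprout groups its adjusted p was 0.0269 at a log2 fold change of −0.94, under the fold threshold. Of 15 genes of active demethylation and base repair, 8 were called higher and 2 lower (Gadd45b and Gadd45g). Dppa3, which protects methylation in the early embryo, averaged 63.5 and 30.8 CPM in the sprout groups and was near 0 in tumor (0.0617 and 0.0554 CPM), while Gadd45g, a stress-induced gene, averaged 12.8 and 20.6 CPM in the sprout groups and 350 and 423 CPM in tumor.

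Around Lin28, 8 of the 13 genes of let-7 processing that could be tested across the experiments were called higher in sprouts, among them Drosha and Dicer1, the nucleases of miRNA maturation (log2 fold changes 2.78 ± 0.32 and 2.39 ± 0.24, SE), and 2 were called lower (Ago3 and Mettl1). Of 23 known let-7 targets, 9 were called higher and 4 lower, with a median of 0.87, beside 22% and 20.2% of all genes. The mRNA-binding protein Igf2bp3 averaged 132 and 148 CPM in the sprout groups and 1.61 and 1.28 CPM in tumor. Myc stood the other way, at 14.7 and 25.9 CPM in the sprout groups and 461 and 340 CPM in tumor (log2 fold change −4.34 ± 0.57, SE, adjusted p = 2.44e-05). Between the sprout groups, where 3.03% of all genes and 11 of 12 endothelial markers were called lower, 2 of 22 targets were called, both lower where labelled sense, which were Hmga2 (58.8 against 222 CPM, log2 fold change −1.96 ± 0.17, SE, adjusted p = 0.00263) and Arid3a (30.1 against 59.8 CPM, −1.04 ± 0.19, SE, adjusted p = 0.0241). Lin28a and Lin28b were not called in that comparison.

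Genes with the most similar pattern over the 13 libraries were sought for 4 members among the 15762 genes of the joint fit, by the mean absolute difference in log2(CPM + 1) centred per gene. Lin28a was nearest to Bex1 (0.36), Gsta4 (0.38) and Rps6ka6 (0.40), against a median gene at 2.86. Dnmt3b was nearest to Smtnl2 (0.55), Grhl2 (0.57) and Aldoc (0.57). Uhrf1 was nearest to Api5 (0.24), Nup93 (0.24) and Mov10 (0.25), and Dnmt1 to Idi1 (0.30), Ncoa5 (0.31) and Atl3 (0.34). For the last 2 members the median gene was at 1.05 and 0.97, so that small distances were more common.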

How the data were processed

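The deposited sprout tables hold counts of uniquely assigned reads per gene, which the authors made with STAR 2.5.0a and HTSeq 0.6.1p1 on mm10, beside expected counts, TPM and transcript lengths that the authors made with RSEM 1.2.25. The deposited tumor tables hold featureCounts (Subread 1.6.2) counts per gene on mm10 from Smart-Seq2 libraries. The study's methods name STAR for the tumor reads and the submitters' processing notes list Trim Galore 0.5.0, Bowtie2 2.3.4.1 and SAMtools 1.9. The strand setting of the counting is not given in the sources used here. HTSeq rows that name no gene (54.1% to 59.1% of a sprout file's total) were left out.

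Counts as deposited were tested with edgeR 4.0.16 (R 4.3.3, quasi-likelihood, TMM, filterByExpr with a minimum count of 10) in a fit of each experiment, and in 1 fit of the 4 group means for the comparison between experiments and the interaction, over genes listed in both. Calls needed a Benjamini-Hochberg adjusted p under 0.05 over all genes tested and an absolute log2 fold change over 1. Alternatives were DESeq2 1.42.0, its size factors, limma 3.58.1 with sample quality weights, other filters, RSEM expected counts rounded to whole numbers, a replicate block and each library left out. The fits were tested on simulated data. Named genes were the 10 members, Apln, list genes called in the tumor or sprout fit or at most 2 per direction with the lowest p between the experiments, and the 3 nearest genes of 4 members. Members and lists were chosen with earlier results of these data known, and the ratios to summed markers were chosen after seeing the data. Total counts (4661044 to 16804071 per library) limit the precision of low genes, and limits for a count of 0 cover counting error only. Shares and correlations used exact two-sided permutation tests. Lengths per gene are those of the RSEM tables. The exons of Dnmt3a, Dnmt3l, Tet2 and Lin28a share 0.255% to 5.86% of their bases with a gene on the opposite strand. Sequences are from RefSeq (GRCm38.p6), with windows for all 10 members.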

Additional observations from a re-analysis of the deposited data

Results flagged for a closer look

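Apln was the gene whose Apelin contrasts differed between the experiments. The log2 fold change of the sense against antisense libraries exceeded that of the Apelin-depleted against wild-type tumor libraries by 6.99 ± 0.74 (SE, edgeR interaction test, adjusted p = 4.39e-04), with 0.24 ± 0.16 in sprouts and −6.70 ± 0.59 in tumor ECs. No library stood apart from its group in any of the 10 members tested in the 6 wild-type libraries, and the other groups hold too few libraries for that test.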

How the results depend on the processing

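Of the members' values between sprout and tumor libraries, 124 of 130 with a library left out and 102 of 110 under other settings kept their direction and side of the thresholds, and no member changed sign. Apln did, at 2.87 between the sense and the Apelin-depleted libraries alone. Between the experiments limma called 9 members (Dnmt1 at 1.03 added) and 9082 genes in all, against 6650, and RSEM counts 9 (Tet3 at −1.08 added) and 7129. The antisense against the wild-type libraries gave 7 members (Tet2 lost) and 3963 genes in all. The sense against the Apelin-depleted libraries gave 8 members (Uhrf1 lost, Tet3 added as lower) and 4488 genes in all. In sprouts the replicate block left 0 members and 44 genes called (Dnmt3l at 1.14, adjusted p = 0.0872). The numbers of the sprout libraries correlated at −0.389, and crossing them gave 1235 genes and 1 member. Leaving out a library gave 0 to 2 members and 148 to 887 genes, no filter 854 genes and no fold threshold 905, against 565. The tumor numbers did not pair (−0.109 to 0.0508). In tumor ECs, 58 genes were called by DESeq2, 16 with no filter and 2 by limma, with the block or without Apelin-depleted library 1 and wild-type library 4, and no member in any. In the interaction DESeq2 called 79 genes, its size factors or no filter 3, and leaving out a library 1 to 9.

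The members' values whose sign changed were called in no setting, and the cause was not tested. With the replicate block the tumor values were −1.43 (Dnmt3l), −0.12 (Uhrf1) and −0.18 (Tet3) and the interaction values −0.12 (Dnmt3a) and −0.75 (Tet1). With limma they were −0.59 (Dnmt3l) and −0.094 (Uhrf1), and Dnmt3l was −4.01 without Apelin-depleted library 1 and wild-type library 4. The Dnmt1 interaction was 0.028 with DESeq2, 0.027 with its size factors and 0.00 with a mean of at least 10 counts, and with no filter Dnmt3a and Tet1 were at −0.003 and −0.002. With 1 library left out, tumor values ranged from −0.15 to 0.64 (Dnmt1), −1.60 to 0.09 (Dnmt3b), −3.74 to 0.94 (Dnmt3l), −0.61 to 0.50 (Uhrf1), −0.40 to 1.17 (Tet1) and −0.17 to 0.34 (Tet3). In sprouts they ranged from −0.026 to 0.21 (Dnmt3a), −0.18 to 0.52 (Dnmt3b) and −0.078 to 0.46 (Lin28a), the lone library of a group being taken to vary like the others. The interactions ranged from −0.34 to 0.44 (Dnmt1), −0.18 to 0.15 (Dnmt3a), −0.031 to 1.06 (Uhrf1), −0.44 to 1.11 (Tet1), −2.41 to 3.79 (Lin28a) and −2.43 to 3.21 (Lin28b). Depth limits Lin28a, Lin28b, Dnmt3l and Tet1 in tumor ECs, with 15 and 10 counts over 9 libraries for the Lin28 genes.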
